A study of Mus musculus with 21 samples.

Results

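PIC144-1 and PIC144-3 are mouse glioma stem-like cell lines, and the labels give both as IDH1 mutant. They share the number 144, but the labels do not say whether they came from 1 animal. A gene entered the comparison when it lies on an autosome and its mean reached 0.5 FPKM, a count of fragments scaled to the length of the gene and the depth of the library, in at least 1 of these lines. This gave 13503 of 50225 autosomal genes, of which 11741 reached that level in both lines, 892 in PIC144-1 only and 870 in PIC144-3 only. Each line had 3 libraries, labelled as biological replicates. The library was the unit of every test, so the values describe these 2 lines and not IDH1 mutant gliomas as a class. The labels do not state that the replicates were grown as separate cultures, so p-values measure the spread between these libraries, which may be technical.

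The cells came from brain tumours of genetically engineered mice and were grown untreated in serum-free stem cell medium with EGF and bFGF, without attachment and at lowered oxygen. Polyadenylated RNA was sequenced in strand-specific, paired-end libraries. The whole series holds 21 libraries of 7 lines, and its title asks about expression of Cgas in IDH1 wild-type and mutant gliomas. The other lines are PIC496-3 and PIC496-4, labelled IDH1 mutant, and PC134-0, PC308-1 and PC326-1, labelled IDH1 wild-type. The sources used here do not give the transgenes, the promoter or Cre that drives the mutation or the number of clones per line, and values per gene cannot show the mutation.

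IDH1 makes 2-oxoglutarate in the cytosol, and its tumour mutants reduce that product further to 2-hydroxyglutarate, a competitor of the dioxygenases that remove methyl groups from DNA and histones. cGAS, the product of Cgas, binds DNA in the cytosol and makes a cyclic dinucleotide that activates STING and, through it, interferon. Glioma stem-like cells are known to vary between states that resemble neural progenitors, oligodendrocyte progenitors, astrocytes and a mesenchymal state rich in secreted and injury-response genes.

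The libraries held 15477717 to 21966351 assigned fragments each. Both lines expressed Sox2 and Olig2, factors of neural and oligodendroglial progenitors. Other factors of these lineages, such as Sox10 and Sox9, were called different between the lines, as given below. Sox2 was at 192, 150 and 155 FPKM in PIC144-1 and 196, 174 and 178 FPKM in PIC144-3, and Olig2 at 278, 248 and 277 against 330, 286 and 322 FPKM; neither was called different. Of 17 microglia and macrophage markers, 8 had no fragment in any of the 6 libraries, among them Csf1r, Cx3cr1, C1qa and Tyrobp, and Cd68 alone was tested. The summed FPKM of that list was 2.80 to 3.07 in PIC144-1 and 0.633 to 0.983 in PIC144-3. The lymphocyte markers Cd3e, Cd3d and Cd3g and the endothelial marker Cldn5 were also without a fragment in all 6 libraries. In bulk RNA, fewer cells that express a gene and less RNA per cell cannot be told apart.

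The 2 lines differed widely. A gene was called when its log2 difference, PIC144-1 minus PIC144-3 on log2(FPKM + 0.5), was at least 1 in size and limma's Benjamini-Hochberg adjusted p was under 0.05. By this rule 1686 genes were called (12.5% of those tested): 692 were higher in PIC144-1 (5.12%) and 994 were lower (7.36%). Without the limit on size, 8318 genes passed (61.6%), and the libraries of the lines did not overlap for 9069 genes (67.2%). The limit on size therefore sets most of the calls. Libraries did not overlap for 1675 of the 1686 called genes. Of the called genes, 297 were at or above 0.5 FPKM in PIC144-1 only, 396 in PIC144-3 only and 993 in both. A difference of at least 2 was seen for 378 called genes, 154 higher and 224 lower in PIC144-1. The typical gene moved little: the median size of the difference was 0.369 and the median difference 0.013, while the median SD between libraries of a line was 0.098 in PIC144-1 and 0.091 in PIC144-3.

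**Figure D1:**
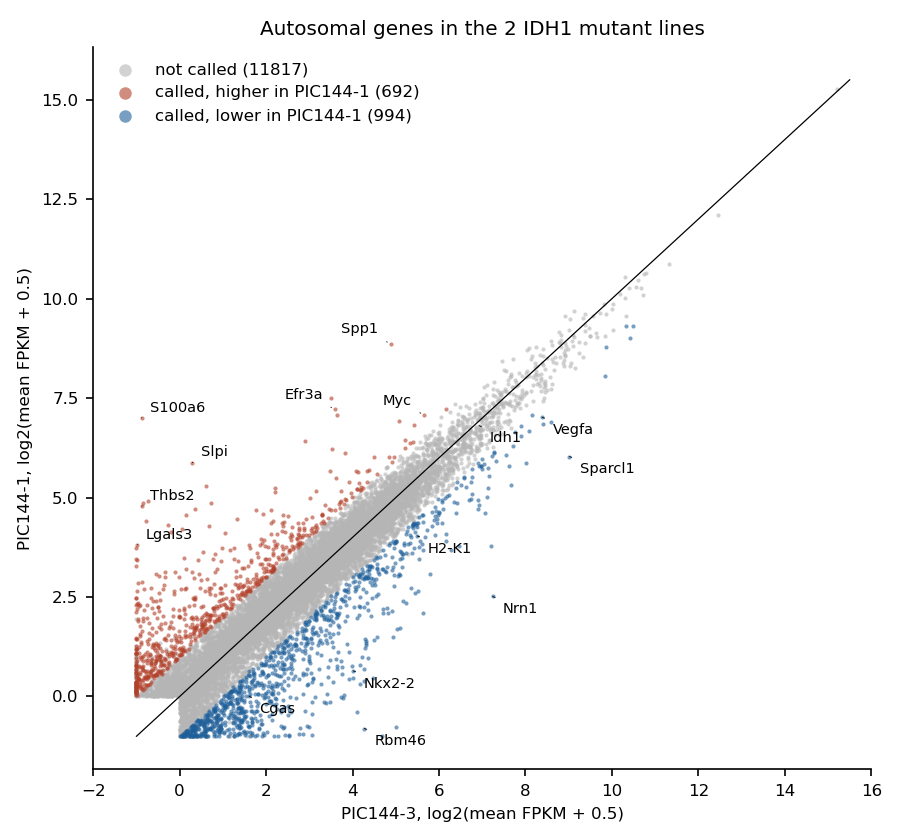
Mean expression of each tested gene in PIC144-3 (x axis) and PIC144-1 (y axis), both as log2(mean FPKM + 0.5) over 3 libraries a line, with the diagonal of equal levels and called genes coloured by direction. Most genes lie along the diagonal, and 692 called genes lie above it and 994 below it.

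The 15 genes with the largest called difference in each direction included secreted and injury-response genes on the PIC144-1 side and neural transcription factors on the PIC144-3 side. The calcium-binding protein gene S100a6 (ENSMUSG00000001025, chromosome 3, 90612882 to 90624181, plus strand, GRCm38) was at 138, 118 and 128 FPKM in PIC144-1 and at 0.0415, 0.0873 and 0 FPKM in PIC144-3. The log2 difference was 7.88 (SE 0.085, adjusted p = 9.13e-09 by limma). It rests on 3 fragments in all of PIC144-3, so its size depends on the value of 0.5 added before taking logs. The other 5 lines had means of 0.0276 to 1.15 FPKM, so PIC144-1 stood above every other line for this gene. The other 14 were the retinoic acid carrier Crabp1, the matrix protein genes Thbs2 and Dcn, the ciliary gene Cfap70, the protease inhibitor Slpi, the adenylyl cyclase Adcy8, the galectin Lgals3, the hormone receptor Pth2r, the membrane protein gene Emp3, the stromelysin Mmp3, the BMP antagonist Grem1, the prostaglandin synthase Ptgs2, the chemokine Ccl2 and the lipocalin Lcn2. Their log2 differences ran from 4.33 (Lcn2) to 5.71 (Crabp1). Some were not detected in PIC144-3 at all: Pth2r, at 13.1, 12.4 and 12.6 FPKM in PIC144-1, and Grem1, at 11.3, 10.1 and 10.2 FPKM, had no fragment in PIC144-3. Against a floor of 3 fragments over the 3 libraries of PIC144-3, Pth2r was at least 610-fold higher and Grem1 at least 814-fold higher.

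The 15 genes lowest in PIC144-1 included Ctxn3, Rbm46, Nrn1, Tcfl5, Mmp14, Zic1, Angpt2, Col5a2, Cxcl14, Zic2, Gpx7, Cxcl12, B3gnt5 and Ctsh. Neuritin (Nrn1), a membrane-anchored neurite growth factor, was at 5.71, 5 and 4.93 FPKM in PIC144-1 and 160, 156 and 137 FPKM in PIC144-3, a log2 difference of -4.72. Rbm46, a germ-cell RNA-binding protein gene, was at 0.0724, 0.0693 and 0.074 against 19.6, 18.8 and 18.1 FPKM, and no other line passed 1.85 FPKM. Ctxn3 had no fragment in PIC144-1 and 27.4, 24.6 and 23.7 FPKM in PIC144-3, at least 677-fold lower. The lines differ in which of them stood apart from the rest of the series. For all 15 genes on the higher side PIC144-1 lay above the means of all 5 other lines, and PIC144-3 lay below them for 3. On the lower side PIC144-1 lay below all 5 for 7 genes, and PIC144-3 lay above all 5 for 9.

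**Figure D2:**
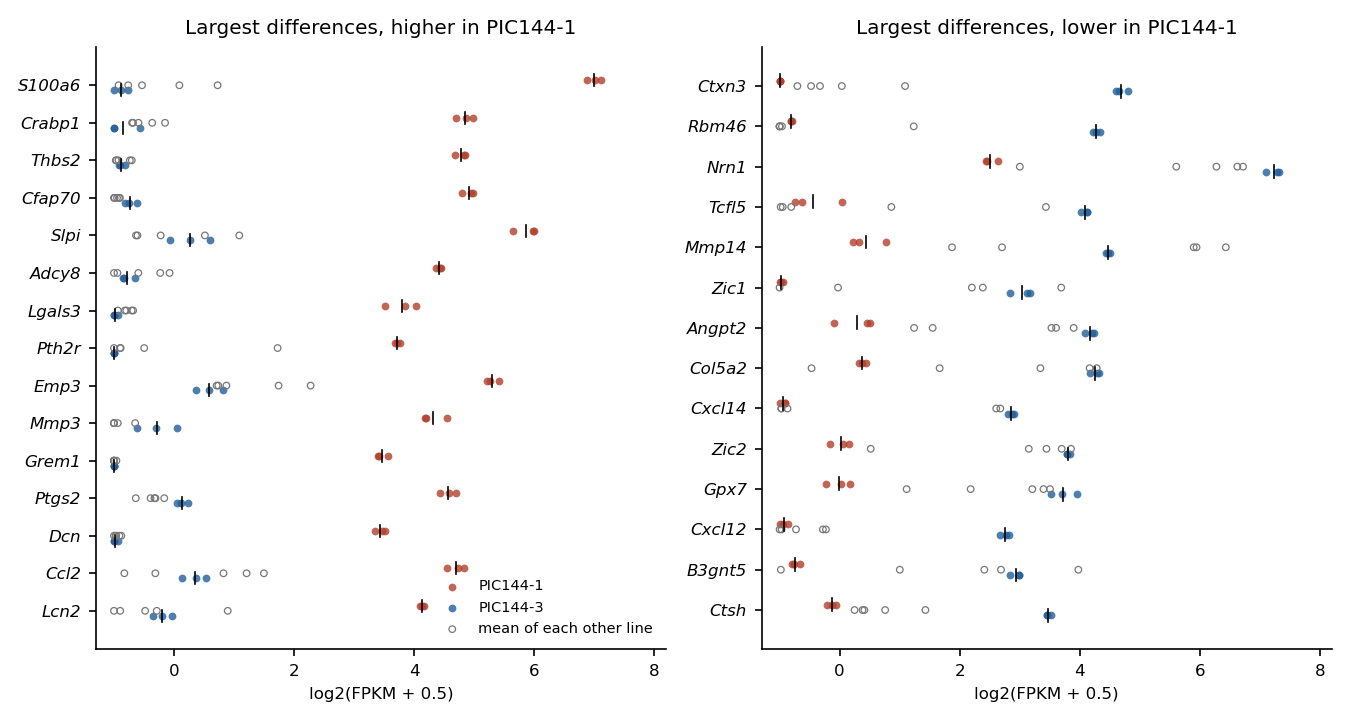
Expression, log2(FPKM + 0.5), of the genes with the largest called difference in each direction (15 in the left panel, 14 of 15 in the right), with a point for each of the 3 libraries of PIC144-1 (red) and PIC144-3 (blue), a tick at the mean of the 3 plotted values and open circles for the means of the other 5 lines. In the left panel PIC144-1 is above all other lines for all 15 genes. In the right panel PIC144-1 is below the other 5 lines for 7 genes and PIC144-3 is above them for 9, some of which are both. Zic1, Col5a2 and B3gnt5 are neither.

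Cgas itself was among the called genes. Its FPKM were 0.395, 0.573 and 0.538 in PIC144-1 and 2.75, 2.15 and 2.74 in PIC144-3, so the libraries did not overlap and the means, 0.502 ± 0.0946 and 2.55 ± 0.34 FPKM (SD, n = 3), stood 5.08-fold apart. The gene (ENSMUSG00000032344, chromosome 9, 78430526 to 78443237, minus strand, GRCm38) had 104 fragments in PIC144-1 and 592 in PIC144-3. The log2 difference was -1.60 (SE 0.131, adjusted p = 3.32e-05 by limma across all genes tested). The exact two-sided permutation test on these 6 values gave p = 0.1, the smallest that 3 against 3 libraries allow. The other 5 lines had means of 0.229 to 3.91 FPKM, a range that contains both of these IDH1 mutant lines. Idh1, at 110, 116 and 108 FPKM against 125, 120 and 119 FPKM, was not called (log2 difference -0.12, adjusted p = 0.0631 by limma).

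Among the other genes of cytosolic DNA sensing, Aim2, whose protein binds cytosolic DNA and assembles an inflammasome, went the other way. It was at 4.55, 4.89 and 4.33 FPKM in PIC144-1 and at 0.0162, 0 and 0.0133 FPKM in PIC144-3, with the other 5 lines at 0 to 0.0176 FPKM. Ifi204, a neighbouring gene of the same family whose near-identical copies make its assignment uncertain, was also higher (log2 difference 1.58). Tmem173, which encodes STING, was at 41.6, 45.4 and 45.8 FPKM against 46.1, 48.4 and 50 FPKM and was not called. Of 14 tested genes of this list 2 were called higher and 1 lower, with a median difference of 0.05. The share called was 21.4%, against 12.5% over all genes tested. None of 8 tested genes that sense double-stranded RNA was called by limma on log2(FPKM + 0.5). Of these, 7 had an unadjusted p under 0.05 by limma without reaching the limit on size, and limma voom called 1.

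The genes of antigen presentation on MHC class I that were called were all lower in PIC144-1. Of 21 tested genes of that list 9 were called lower and none higher, and the median difference was -0.46 beside 0.01 over all genes tested. The share called was 42.9%, against 12.5% over all genes tested. H2-K1, a classical class I heavy chain, was at 16.8, 15.6 and 15.3 FPKM in PIC144-1 and 46.7, 43.9 and 43.2 FPKM in PIC144-3 (log2 difference -1.46). The peptide transporter genes were near the bottom of the measured range in PIC144-1: Tap1 had a mean of 0.271 ± 0.0496 FPKM against 2.29 ± 0.179, and Tap2 had 0.274 ± 0.0818 against 2.71 ± 0.325 (SD, n = 3 each). The immunoproteasome subunit genes Psmb8, at 0, 0.0211 and 0 against 0.829, 0.741 and 0.697 FPKM, and Psmb10, at 6.29, 5.48 and 6.14 against 14, 13.6 and 15.4 FPKM, were lower as well. The transporter and subunit genes thus had libraries that did not overlap between the lines, which also held for 1675 of all 1686 called genes. The other called genes were the tapasin-like Tapbpl and H2-Q4, H2-Q6 and H2-Q7, 3 near-identical class I genes whose fragments may be divided among copies.

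The light chain and the second classical heavy chain stood closer. B2m was at 103, 105 and 96.4 FPKM in PIC144-1 and 127, 134 and 110 FPKM in PIC144-3, and H2-D1 at 14.2, 13.9 and 13.8 against 20.4, 17.9 and 20 FPKM. Neither reached the limit on size (log2 differences -0.28 and -0.46). For 6 of the 9 class I genes called lower PIC144-1 lay below all 5 other lines, and for 4 PIC144-3 lay above all of them. Over all genes called lower these shares were 51.6% and 48.3%. Of class II genes only H2-Ab1 and H2-DMa were tested, and both were lower: H2-Ab1 had no fragment in PIC144-1 and 1.56, 1.31 and 1.28 FPKM in PIC144-3, at least 37.8-fold lower. Genes between H2-K1 and H2-T23 on chromosome 17 that are not on the class I list were not lower together, with 7 called higher, 4 lower and a median of 0.07 over 69 tested.

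Of 45 interferon-induced genes 24 were tested, and 4 were called lower in PIC144-1 and 2 higher, with a median of -0.53. Of the tested genes 25.0% were thus called, against 12.5% over all genes tested. The ubiquitin-like modifier gene Isg15 was at 0.718, 0.458 and 0.897 FPKM in PIC144-1 and 1.57, 3.39 and 3.51 FPKM in PIC144-3, and Bst2, which encodes the virus-tethering protein tetherin, at 9.35, 6.84 and 8.8 against 28.6, 26.6 and 23.4 FPKM. Irgm1, an immunity-related GTPase gene, was at 2.24, 2.73 and 2.8 against 8.67, 8.29 and 8.15 FPKM. Rsad2, which encodes viperin, was at 0.445, 0.2 and 0.242 against 0.954, 1.54 and 1.09 FPKM, low values whose call ended with a pseudocount of 1 and without replicate 2 of PIC144-3. Ifi35 and Isg20 were higher instead, at log2 differences of 1.15 and 1.06. Irf9, an interferon-response transcription factor gene, was not called (-0.25). The number called lower on this list ran from 3 with a pseudocount of 1 to 11 with fragment counts in limma voom.

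The promoters of the 4 interferon-induced genes called lower are printed because each holds the letters GAAANNGAAA, a core of the interferon-response element. Each line gives the 250 bases before the start of the gene, 5′ to 3′ on the gene's strand, from the RefSeq table for GRCm38.p6, with the matches in capitals on whichever strand they were found. Isg15 is chr4:156200819-156201068, Bst2 is chr8:71537473-71537722, Irgm1 is chr11:48871421-48871670 and Rsad2 is chr12:26456453-26456702, all on the minus strand.
Isg15: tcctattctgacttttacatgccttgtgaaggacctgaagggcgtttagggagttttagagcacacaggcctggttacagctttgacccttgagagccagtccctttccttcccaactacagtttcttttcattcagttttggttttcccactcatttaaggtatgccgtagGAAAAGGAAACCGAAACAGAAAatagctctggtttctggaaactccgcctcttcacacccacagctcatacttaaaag
Bst2: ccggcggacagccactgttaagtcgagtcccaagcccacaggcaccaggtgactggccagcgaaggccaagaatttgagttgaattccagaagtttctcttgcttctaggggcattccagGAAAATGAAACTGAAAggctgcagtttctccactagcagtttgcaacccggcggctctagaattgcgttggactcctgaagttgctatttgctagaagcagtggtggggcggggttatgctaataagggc
Irgm1: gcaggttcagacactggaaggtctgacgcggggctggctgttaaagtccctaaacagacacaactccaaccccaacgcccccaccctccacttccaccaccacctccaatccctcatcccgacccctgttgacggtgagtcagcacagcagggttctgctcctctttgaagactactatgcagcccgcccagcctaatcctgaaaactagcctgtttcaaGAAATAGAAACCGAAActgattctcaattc
Rsad2: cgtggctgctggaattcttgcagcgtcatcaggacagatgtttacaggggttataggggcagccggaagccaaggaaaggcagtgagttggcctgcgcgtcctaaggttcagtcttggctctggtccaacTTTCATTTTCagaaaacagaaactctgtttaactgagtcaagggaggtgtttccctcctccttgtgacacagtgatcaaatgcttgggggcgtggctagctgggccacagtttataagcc
Isg15 holds 3 overlapping matches, Bst2 and Irgm1 hold 2 overlapping matches each, and Rsad2 holds 1 on the opposite strand. With both strands searched over the 300 bases that the table gives for each promoter, these letters are in 3.44% of 32851 promoters and, by gene, in 3.47% of the 9319 tested genes with an entry. They are in 11 of the 20 tested interferon-induced genes with an entry, in 4 of the 4 called lower and in 0 of the 2 called higher. The other interferon-induced genes that hold them, among them Stat2 and Ifitm3, were not called, and 0 of the 7 class I genes called lower with an entry hold them in this window. A match is a description of the sequence and was not tested as a binding site.

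**Figure D3:**
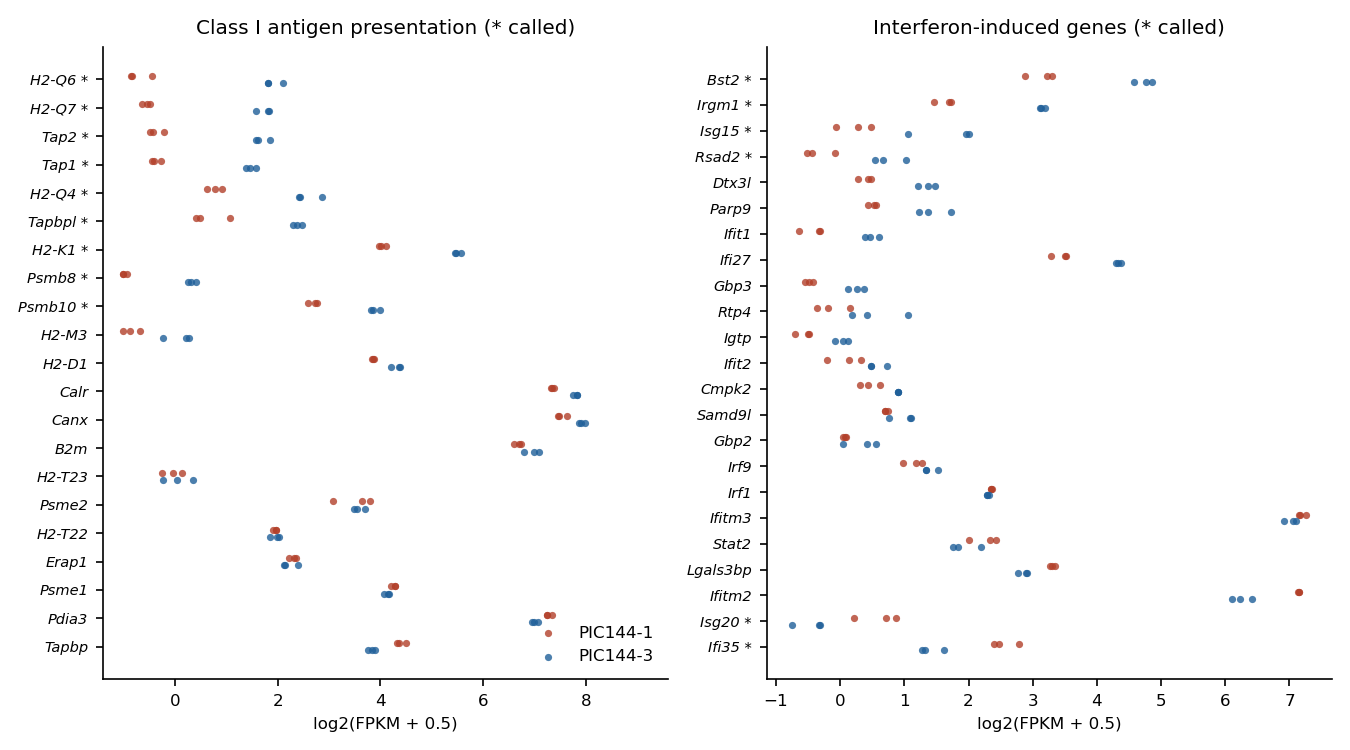
Expression, log2(FPKM + 0.5), of each tested gene of class I antigen presentation (left) and of the interferon-induced list (right, 23 of 24 genes), with a point for each of the 3 libraries of PIC144-1 (red) and PIC144-3 (blue) and an asterisk at called genes, ordered by difference. The 9 called class I genes are all lower in PIC144-1, while the called interferon-induced genes lie at both ends, 4 lower and 2 higher.

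Secreted chemokines and cytokines divided between the lines, with 63.2% of those tested called, against 12.5% over all genes tested. Of 19 tested genes 8 were called higher in PIC144-1 and 4 lower, and PIC144-1 lay above all 5 other lines for 7 of those 8. Over all genes called higher that share was 75.9%. Spp1, which encodes osteopontin, was at 470, 467 and 459 FPKM against 30.6, 28.1 and 28.9 FPKM (log2 difference 3.97), and the other 5 lines had means of 6.66 to 65.5 FPKM. The monocyte attractants Ccl2, at 26.2, 22.8 and 27.8 against 0.598, 0.786 and 0.94 FPKM, and Ccl7, at 5.5, 7.13 and 5.23 against 0.212, 0.0745 and 0.523 FPKM, were higher with it. So were the neutrophil attractant Cxcl5 and 3 cytokine genes of the IL-6 family, Il11, Lif and Clcf1. On the PIC144-3 side Cxcl12, the ligand of CXCR4, was at 0.0516, 0.0212 and 0 against 6.54, 6.35 and 5.85 FPKM, and the T-cell attractant Cxcl10 at 0.669, 1.38 and 1.2 against 3.62, 3.6 and 5.1 FPKM. The alarmin Il33 was at 2.4, 2.42 and 2.2 against 24.3, 24.7 and 20.9 FPKM. Complement genes divided in the same way. The 3 called higher, C3, Clu and Masp1, include the central component C3 at 10.8, 9.88 and 9.64 against 1.71, 1.4 and 1.2 FPKM, and the 3 called lower, C1s1, C1ra and C4b, belong to the classical pathway and were not called with a pseudocount of 1. The summed microglia markers given above, 2.80 to 3.07 against 0.633 to 0.983 FPKM, moved with the chemokines called higher, and their part in that difference was not tested.

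Mesenchymal glioma markers were called higher in PIC144-1 far more often than lower. Of 24 tested genes 11 were called higher and 1 lower, with a median of 0.73. PIC144-1 lay above all 5 other lines for all 11, beside 75.9% over all genes called higher. The epithelial membrane protein gene Emp3 was at 41.9, 36.8 and 37.9 FPKM in PIC144-1 and 1.27, 1 and 0.782 FPKM in PIC144-3. Galectin-3 (Lgals3) was at 15.8, 14 and 10.9 against 0, 0 and 0.025 FPKM, and the urokinase receptor gene Plaur at 4.08, 3.02 and 4.26 against 0.281, 0.114 and 0.0889 FPKM. None of these libraries overlapped, as for nearly all called genes. The hyaluronan receptor gene Cd44 just reached the limit on size, at 35.4, 37.6 and 35.6 against 18.5, 19.2 and 15.9 FPKM. S100a11 and S100a10, genes of the same family on chromosome 3, had lower means in PIC144-1 and were not called. Tenascin-C (Tnc), an adhesion-modulating matrix glycoprotein on the same list, was lower, at 39.4, 37.6 and 39.9 against 200, 205 and 200 FPKM (log2 difference -2.36). Summed pericyte and fibroblast markers were 14.6 to 16.6 FPKM in PIC144-1 and 1.81 to 2.35 FPKM in PIC144-3. In PIC144-1 Dcn and Col3a1 made up most of that sum, while Pdgfrb and Col1a2 stayed at or under 0.18 FPKM in all 6 libraries.

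Fosl1, which encodes the AP-1 subunit FRA-1, was at 11.8, 11.3 and 11.1 FPKM in PIC144-1 and 1.16, 0.839 and 1.77 FPKM in PIC144-3. The promoters of 4 called genes that hold an AP-1 motif are therefore printed, with the letters TGANTCA in capitals. They are Mmp3 (chr9:7445572-7445821, plus strand), the only gene that holds it among the 12 of the 15 largest positive differences with an entry, and the mesenchymal markers Plaur (chr7:24462233-24462482, plus strand), Emp1 (chr6:135362681-135362930, plus strand) and Met (chr6:17463707-17463956, plus strand).
Mmp3: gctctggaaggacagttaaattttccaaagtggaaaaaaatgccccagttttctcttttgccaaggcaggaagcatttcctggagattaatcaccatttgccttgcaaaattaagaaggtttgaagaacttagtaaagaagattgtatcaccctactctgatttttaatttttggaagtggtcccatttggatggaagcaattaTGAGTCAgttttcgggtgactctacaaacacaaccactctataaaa
Plaur: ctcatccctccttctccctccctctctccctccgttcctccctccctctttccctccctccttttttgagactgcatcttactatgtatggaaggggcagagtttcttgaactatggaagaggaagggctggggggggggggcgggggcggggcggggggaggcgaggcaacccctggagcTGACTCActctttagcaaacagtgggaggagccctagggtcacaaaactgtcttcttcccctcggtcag
Emp1: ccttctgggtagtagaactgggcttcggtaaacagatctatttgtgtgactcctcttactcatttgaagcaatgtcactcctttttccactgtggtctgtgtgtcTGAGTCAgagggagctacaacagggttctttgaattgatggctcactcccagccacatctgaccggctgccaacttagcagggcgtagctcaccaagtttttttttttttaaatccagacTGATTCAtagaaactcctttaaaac
Met: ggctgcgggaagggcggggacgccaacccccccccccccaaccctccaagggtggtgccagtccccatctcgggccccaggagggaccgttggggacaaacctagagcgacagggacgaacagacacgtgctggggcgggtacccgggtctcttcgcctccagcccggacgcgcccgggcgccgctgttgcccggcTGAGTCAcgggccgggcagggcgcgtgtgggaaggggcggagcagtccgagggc
These letters, searched on both strands, are in 7.81% of all promoters in the table and in 5.72% of the tested genes with an entry. Among the mesenchymal markers called higher they are in 3 of 10. The Irgm1 and Rsad2 promoters printed above also hold them, in lower case, and those genes went the other way. FRA-1 binding was not measured.

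Transcription factors of brain patterning were called lower in PIC144-1 more often than higher. Of 33 tested genes 11 were called lower and 2 higher, with a median of -0.32 (39.4% called, against 12.5% over all genes tested). The list as a whole was divided by sign, with 17 negative and 16 positive differences. Lhx2, a LIM homeodomain factor of the developing cortex, was at 1.83, 1.81 and 1.82 FPKM in PIC144-1 and 19.4, 18.4 and 19.2 FPKM in PIC144-3. Nkx2-2, a ventral factor of the oligodendrocyte lineage, was at 0.734, 1.14 and 1.31 against 16.9, 14.3 and 15.8 FPKM, while the other 5 lines had means of 8.64 to 16.6 FPKM. PIC144-1 was thus the line out of range for Nkx2-2. The zinc-finger factors Zic1, Zic2 and Zic5, the orphan receptor Nr2e1 and Six3, Msx2 and Nkx6-1 were also called lower. Hox genes, which pattern the hindbrain and trunk, divided: Hoxa10 was at 10.6, 10.4 and 10.3 against 1.23, 1.02 and 1.38 FPKM, and Hoxa2 and Hoxa6 were higher too. Hoxd8 and Hoxd9 had no fragment in PIC144-1 or in the other 5 lines, and were at 1.49, 0.804 and 1.42 FPKM and at 0.663, 0.614 and 0.74 FPKM in PIC144-3.

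Lineage markers were called in both directions. By list 31.6% of stem and progenitor, 40.0% of oligodendrocyte progenitor and 43.8% of astrocyte markers were called, against 12.5% over all genes tested. Of 19 tested neural stem and progenitor markers Itga6 and Hes5 were called higher and Prom1, Nr2e1, Hopx and Sox9 lower. Among oligodendrocyte progenitor markers 3 of 15 were called in each direction. C1ql1 was at 42.9, 32.9 and 36.4 FPKM in PIC144-1 against 3.35, 3.81 and 5.08, and Sox10, the lineage's master factor, at 1.17, 1.12 and 1.25 FPKM with no fragment in PIC144-3 (at least 67.0-fold higher). Cspg4, which encodes the NG2 proteoglycan, was at 9.54, 8.88 and 8.56 against 31.2, 30.2 and 28.7 FPKM and went with Nkx2-2 and Sox6 to the lower side. Of 16 tested astrocyte markers 5 were called lower and 2 higher, with a median of 0.13. The glutamate transporter gene Slc1a2 was among those lower (log2 difference -1.76), and PIC144-1 lay below all 5 other lines for all of these 5. The 2 called higher were Clu (3.05) and Cbs (1.01), and the most abundant marker, the aldolase gene Aldoc, was at 372, 336 and 334 FPKM against 179, 169 and 177 FPKM, just under the limit on size (0.99). The summed FPKM of the list was 500 to 539 in PIC144-1 and 305 to 318 in PIC144-3.

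Genes of synapses, ion channels and neural adhesion were called lower in PIC144-1 more often than higher. The shares called were 58.6% for adhesion, 68.8% for receptor and 35.7% for potassium channel genes, against 12.5% over all genes tested. Of 29 tested neural adhesion genes 14 were called lower and 3 higher, with a median of -0.84. Dscam, a homophilic receptor of neurites, was at 0.87, 0.767 and 0.924 FPKM in PIC144-1 and 14.8, 14.9 and 14.1 FPKM in PIC144-3. Of 16 tested glutamate and GABA receptor genes 8 were called lower and 3 higher, and Gabra2, a GABA-A receptor subunit gene, was at 0.734, 0.513 and 0.395 against 9.81, 11.2 and 9.31 FPKM. Of 28 potassium channel genes 8 were called lower and 2 higher, with the leak channel gene Kcnk1 at 0.27, 0.413 and 0.303 against 4.06, 4.88 and 5.56 FPKM. The line order was reversed for the synaptic vesicle calcium sensor gene Syt1, at 6.47, 6.72 and 6.41 against 0.319, 0.193 and 0.329 FPKM. Axon guidance genes did not share a direction, with 6 of 49 called higher and 4 lower (20.4% called). Counts on these lists depend on how low values are treated: neural adhesion genes called lower ran from 6 (pseudocount 1) to 17 (limma voom), potassium channel genes from 5 to 13 and receptor genes from 4 to 10 over all settings, axon guidance genes called higher from 3 to 10 and lower from 2 to 10, and the median of the glutamate and GABA receptor list changed sign under some settings, from -1.54 to 0.26.

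Matrix genes were called in both directions. Of collagen genes 54.5% and of other matrix genes 41.0% were called, against 12.5% over all genes tested. Of 22 tested collagen genes 9 were called lower in PIC144-1 and 3 higher. The basement membrane collagen gene Col4a1 was at 32.4, 29.6 and 29.5 FPKM against 111, 108 and 102 FPKM, and the fibrillar Col11a1 at 5.43, 5.71 and 5.53 against 44, 44.2 and 41.1 FPKM. The nidogens, which link laminin to collagen IV, were lower with it, at log2 differences of -2.48 for Nid1 and -3.02 for Nid2. The collagens on the higher side were Col6a3, at 7.02, 7.26 and 8.25 against 0.303, 0.299 and 0.268 FPKM, Col18a1 and Col3a1. Of 39 other matrix genes 10 were called lower and 6 higher. Sparcl1, an astroglial secreted glycoprotein, was at 71.9, 61.5 and 61.1 against 541, 526 and 486 FPKM, and the other 5 lines had means of 235 to 440 FPKM, so both lines lay outside that range on opposite sides. The proteoglycan versican (Vcan) was at 18.1, 21.3 and 20.9 against 3.68, 3.74 and 3.98 FPKM, while Ncan, Cspg4 and Cspg5, proteoglycans of neural tissue, were lower.

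Receptor tyrosine kinases and the genes that report ERK signalling were called lower in PIC144-1 more often than higher. In all 36.4% of the receptor genes and 29.2% of the ERK feedback genes were called, against 12.5% over all genes tested. Of 22 tested receptor genes 6 were called lower and 2 higher. Egfr was at 2.31, 2.63 and 2.65 FPKM against 10.5 FPKM in each library of PIC144-3, and the other 5 lines had means of 6.77 to 17.1 FPKM. Ntrk2, the BDNF receptor gene, was at 0.769, 0.706 and 0.76 against 9.21, 9.56 and 8.64 FPKM, with the other lines at 4.1 to 21.9 FPKM. PIC144-1 was again the line out of range for both. Axl, at 19.7, 20.9 and 19.3 against 4.54, 4.56 and 4.96 FPKM, and Met were the receptor genes on the higher side, and the Axl ligand gene Gas6 was lower (log2 difference -2.01). The EGFR ligand genes Ereg and Areg were higher while Egfr was lower: Areg was at 16.6, 14.7 and 15.4 against 5.18, 4.86 and 6.09 FPKM. Of 24 ERK feedback genes 6 were called lower and Fosl1 alone higher. Spry4, an inhibitor induced by the pathway, was at 26, 25.9 and 25.4 against 118, 118 and 123 FPKM, and Egr1, an immediate early factor, had a log2 difference of -2.13. For 5 of these 6 genes PIC144-1 lay below all 5 other lines, and for 4 PIC144-3 lay above all of them.

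Developmental signalling genes were called in both directions. In the Wnt list, 4 of 29 tested genes were called higher and 7 lower (37.9% called, against 12.5% over all genes tested). The receptor gene Lgr5 was at 20.9, 22.9 and 20.4 FPKM against 1.8, 1.93 and 2.23 FPKM, the frizzled receptor gene Fzd9 at 61.8, 54.5 and 58.2 against 269, 244 and 258 FPKM, and the secreted antagonist gene Sfrp1 at 0.745, 0.871 and 0.93 against 7.06, 8.68 and 8.04 FPKM. In the TGF-beta and BMP list 6 of 35 were called higher and 3 lower (25.7% called). Beside Grem1, Bmp2 was at 1.39, 1.2 and 1.59 against 0.143, 0.101 and 0.0523 FPKM and the BMP-responsive inhibitor gene Id4 at 4.56, 4.03 and 4.24 against 0.221, 0.124 and 0.278 FPKM, while Bmp4 and Bmp7 were lower. Of 24 tested Notch genes Hes5 was called higher and Hey2 and Dner lower, which is the share called over all genes tested (12.5%).

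The hypoxia-response genes that were called were all lower in PIC144-1. Of 28 tested genes 6 were called lower and none higher, with a median of -0.55 (21.4% called, against 12.5% over all genes tested). Carbonic anhydrase 9 (Car9) was at 8.64, 8.49 and 6.77 FPKM against 55.9, 54.9 and 53.4 FPKM, and Vegfa at 142, 128 and 118 against 341, 333 and 328 FPKM. The other 5 lines had Vegfa means of 177 to 276 FPKM, so the lines lay on either side of that range. Of 27 tested genes of glycolysis and lactate 18.5% were called, against 12.5% over all genes tested. On that list 4 genes were called lower and 1, Pfkfb4, higher (log2 difference 1.25). Its median of -0.16 changed sign under some settings, from -0.29 to 0.04. The lactate exporter gene Slc16a3 was at 14, 11.6 and 11.7 against 77.5, 72.9 and 79.8 FPKM, and the glycolytic enzyme gene Tpi1 at 551, 489 and 498 against 1411, 1393 and 1326 FPKM. Lactate dehydrogenase did not follow: Ldha was at 961, 913 and 910 against 907, 903 and 898 FPKM. Gapdh ranged from 9.16 to 149 FPKM within the 6 libraries and was left out of any reading, since it has many near-identical copies.

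Genes of the NRF2 and ATF4 lists were called about as often as all genes tested. The share called was 16.7% of the NRF2 and glutathione list and 15.2% of the ATF4 list, against 12.5%. Nqo1, a quinone reductase induced by NRF2, was at 18.3, 18.3 and 17.2 FPKM in PIC144-1 against 0.876, 0.384 and 0.329 FPKM, and the other 5 lines had means of 1.55 to 4.64 FPKM. It was the 1 gene of 30 on the NRF2 and glutathione list called higher, and Gpx8, Gpx3, Me1 and Txn1 were lower, so the list did not share a direction. Of 33 genes of the ATF4 response and serine synthesis 5 were called higher and none lower, among them the cystine transporter gene Slc7a11 (log2 difference 1.70). Of 30 genes that handle 2-oxoglutarate, glutamate or the branched-chain amino acids, only the transaminase genes Bcat1 and Bcat2 were called, both higher (1.14 and 1.09). This list was called less often (6.67%) than all genes tested (12.5%). None of 19 tested genes of DNA methylation and TET enzymes and none of 25 that silence endogenous retroviruses was called by limma on log2(FPKM + 0.5). An unadjusted p under 0.05 was found for 11 and 14 of them, all under the limit on size, and limma voom called 1 and 0. Of the 25, 21 had a positive difference, beside 6863 of 13503 over all genes tested. The differences were small, with a median of 0.18 (0.14 to 0.27 over the settings).

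Of 34 tested proliferation genes (2.94% called, against 12.5% over all genes tested) only Ccnb2, a mitotic cyclin gene, was called, at 15.4, 14.5 and 14.7 FPKM against 3.22, 3.19 and 3.62 FPKM. Both lines lay below the other 5, whose means ran from 24.4 to 42.5 FPKM. Mki67 was at 40.5, 45.8 and 47.9 against 42.6, 51 and 49 FPKM. Of 20 tested genes of the RB list 3 were called, all lower: Cdkn1c, Cdkn1a and Ccnd2. Ccnd2, a cyclin that drives entry into the cell cycle, was at 91.9, 95.3 and 90.6 against 248, 233 and 229 FPKM. Trp53 had a log2 difference of 1.44 (4.2 ± 0.259 against 1.25 ± 0.221 FPKM). Of 24 tested genes of the p53 target list, which includes Trp53, 4 were called: Trp53 and Btg2 higher, and Cdkn1a and Pmaip1 lower. Genes of the RB and p53 lists were thus called about as often as all genes tested (12.5%). Of 26 imprinted genes 7 were called lower and 2 higher (34.6% called, against 12.5%). Peg3 was at 0.235, 0.32 and 0.375 against 1.88, 2.26 and 2.33 FPKM, and Ndn at 18.6, 18.5 and 19.6 against 4.4, 5.02 and 4.71 FPKM.

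**Figure D4:**
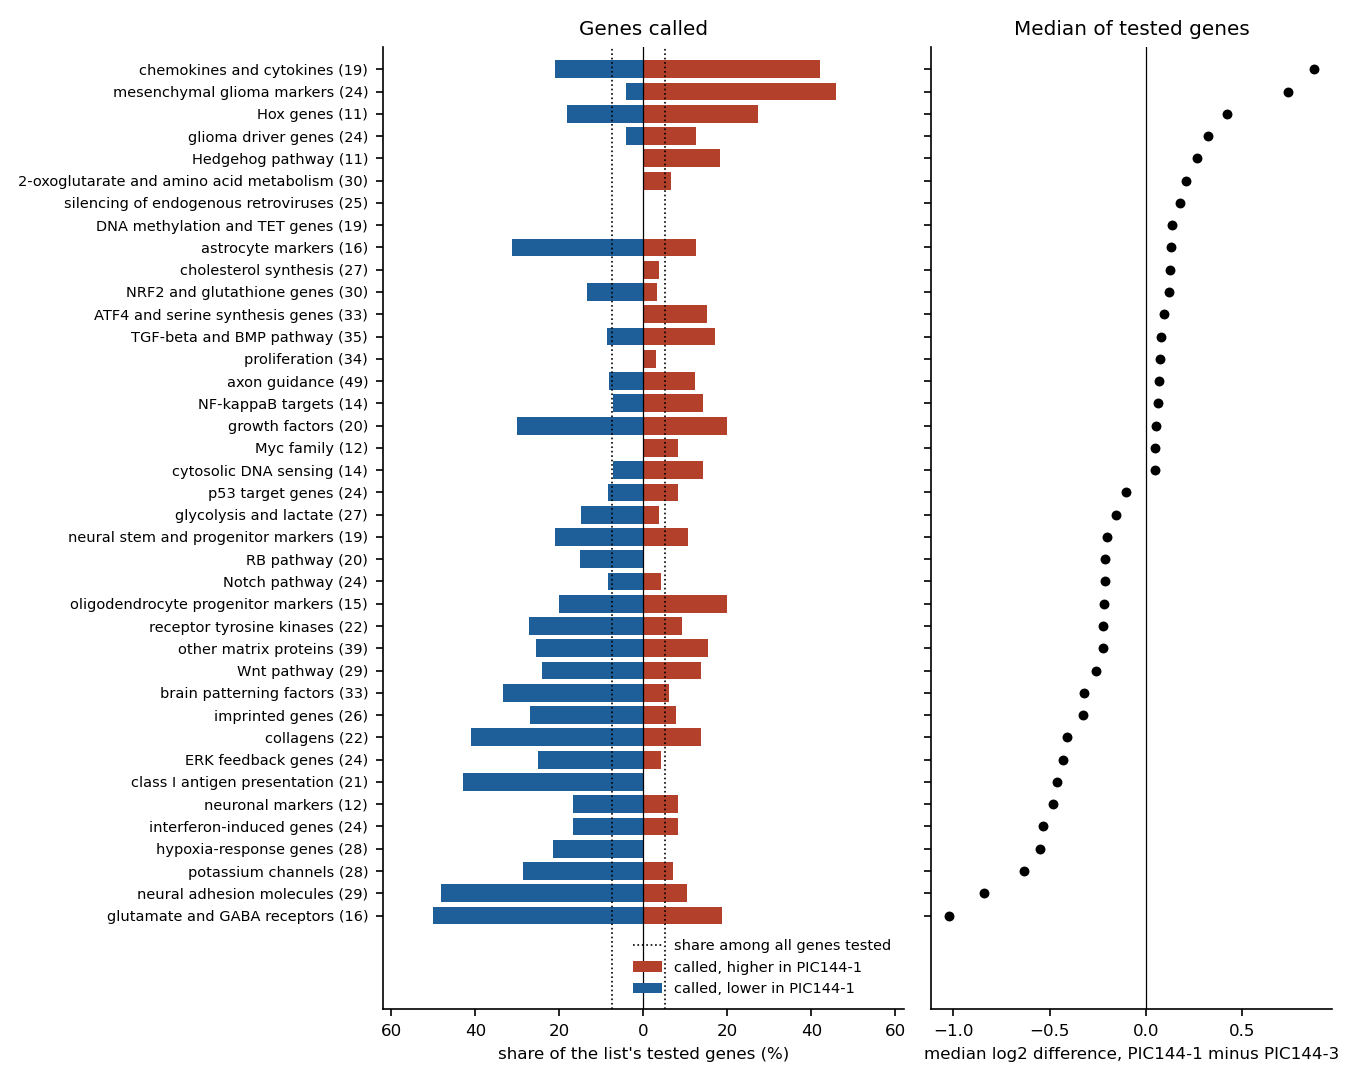
Left, share of each list's tested genes (number in brackets) that were called higher (red, to the right) and lower (blue, to the left) in PIC144-1, for lists with at least 10 tested genes, with dotted lines at the shares among all genes tested (5.12% and 7.36%). Right, the median log2 difference, PIC144-1 minus PIC144-3, of each list's tested genes, which runs from 0.87 for chemokines and cytokines to -1.02 for glutamate and GABA receptors.

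The list counts describe the genes that passed the filter of 0.5 FPKM in at least 1 line. A gene that passed through the high line alone is bound to differ. Of genes that passed in PIC144-1 only, 297 of 892 were called, and of those in PIC144-3 only, 396 of 870. Among genes that passed in both lines, 993 of 11741 were called. The 12.5% called over all genes tested is therefore a low mark for lists with many genes that passed in only 1 line. A share above it is no test of a list. Each list's untested members were those under the filter in both lines, such as 21 of the 45 interferon-induced genes. Called genes often lay outside the range of the other 5 lines on any list. PIC144-1 lay above all 5 for 75.9% of all genes called higher and below all 5 for 51.6% of those called lower. PIC144-3 lay above all 5 for 48.3% of those called lower. Small counts moved with the settings: BMP list genes called lower ran from 1 to 4, ATF4 response genes called higher from 3 to 6 and astrocyte markers called higher from 1 to 5.

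Some calls lay next to each other on the chromosomes. On chromosome 15, between Fam84b and Lrrc6 (60818994 to 66500910, GRCm38), 16 of 18 tested genes were called higher in PIC144-1 and the median difference was 2.07. Asap1, an ARF GTPase-activating protein gene, was at 129, 141 and 136 FPKM in PIC144-1 and 12.3, 12.5 and 11.4 FPKM in PIC144-3, and its neighbour Efr3a at 142, 158 and 146 against 11.4, 12.2 and 11.2 FPKM. For Efr3a the other 5 lines had means of 9.02 to 11.1 FPKM, near PIC144-3. Some of the called genes are predicted or Riken genes that start close to a larger called gene. Among them are Gm20717 and 1700010G06Rik near Asap1 and Gm20405 near Efr3a. With strand use unknown they may share fragments with it, so they are not separate observations. Adcy8, named above among the largest differences, also lies in this run. The run holds the oncogene Myc, at 127, 138 and 137 against 50.8, 49 and 50.7 FPKM, and the long noncoding RNA gene Pvt1 (log2 difference 2.66). PIC144-1 was not the highest of the 7 lines for Myc, since PIC496-4 had a mean of 271 FPKM. Over the run, PIC144-1 lay 1.72 above the mean of the other 5 lines (median log2 difference) and PIC144-3 lay -0.04 from it. For Pvt1 and its neighbour H2afy3, PIC144-3 itself lay below that mean (-1.31 and -1.035), and PIC144-1 lay above it (1.35 and 0.488). The edges of the run were not sharp. Before it Trib1 was not called (-0.64) and Gm2682, between Trib1 and Fam84b, was called higher (1.28). Past Lrrc6, Wisp1 and St3gal1 were called higher (1.07 and 2.07), Tmem71 was called lower (-1.05) and Ndrg1 was not called (-0.55). Farther along the same chromosome Tcf20, a transcriptional coregulator gene, was at 174, 186 and 181 against 10.7, 11.1 and 10.4 FPKM. The predicted gene Gm20324, which starts inside it, was also higher (log2 difference 3.13), and strand use in the counting is unknown, while the neighbours Ndufa6 and Rrp7a on either side were not called.

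For 4 runs it was PIC144-3 that stood apart. On chromosome 14, from Nid2 to Appl1 (19751265 to 26971232), 37 of 54 tested genes were called lower in PIC144-1 and 2 higher, with a median of -1.24. Over it PIC144-3 lay 1.25 above the mean of the other 5 lines and PIC144-1 lay -0.02 from it. Of the 6 genes of the run with a difference the other way, Cfap70 and Plau were the 2 called. In the next stretch, from Il17rd to Wnt5a, the median of 7 tested genes was 0.06, and Wnt5a was called lower (-1.42). Beyond that stretch the difference appeared again, so that from Nid2 to Oxnad1 as a whole 48 of 95 tested genes were called lower and 3 higher. The median was -0.81 over 63 tested genes from Nab1 to Abi2 on chromosome 1 (21 called lower, none higher), -0.71 over 65 from Slc2a3 to Tulp3 on chromosome 6 (17 lower, 1 higher) and -1.52 over 14 from Amigo1 to Gpsm2 on chromosome 3 (10 lower, none higher). The chromosome 6 run holds Tpi1, Ccnd2, Tapbpl, C1s1 and C1ra, genes named above in other groups. Together these 4 runs hold 196 of the genes tested (1.45%) and 85 of the 994 called lower (8.55%), and the chromosome 15 run holds 16 of the 692 called higher (2.31%). The edges of all 5 runs were drawn after the values were seen, so they carry no test, and DNA copy number was not measured.

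**Figure D5:**
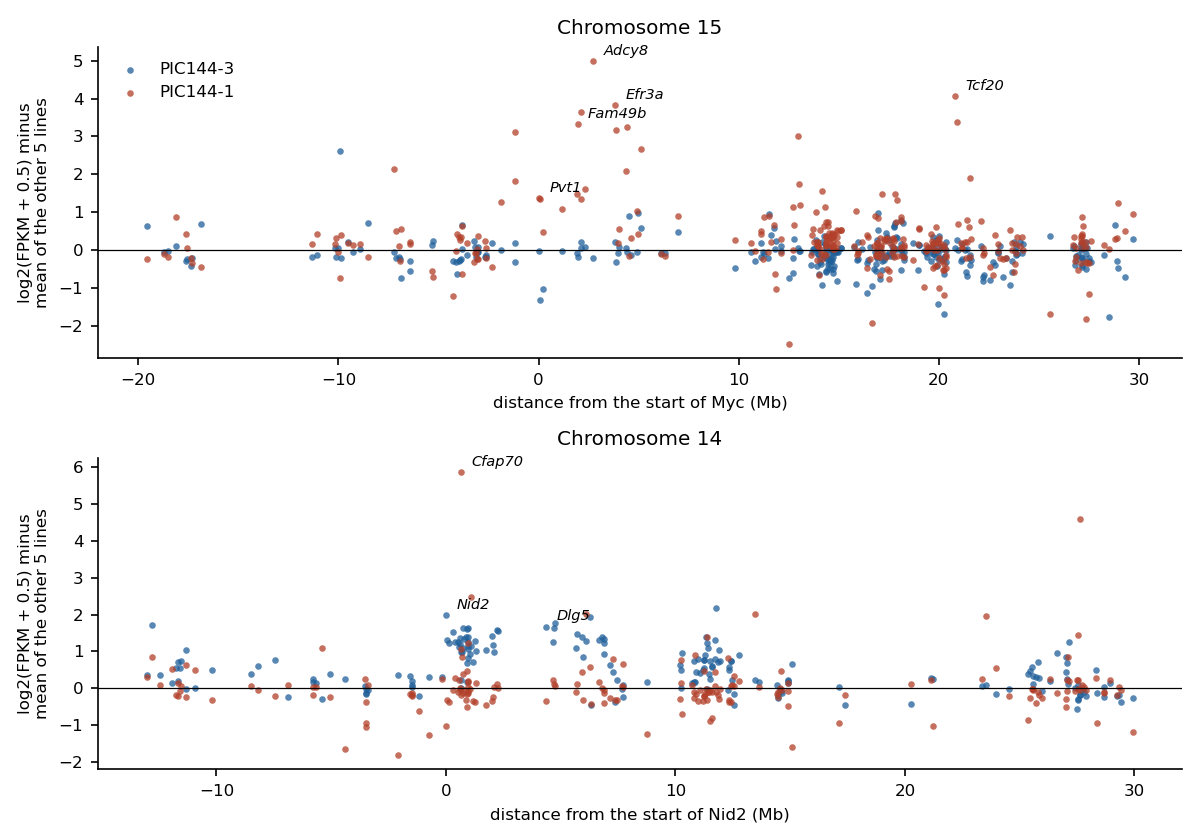
Level of PIC144-1 (red) and PIC144-3 (blue) minus the mean of the other 5 lines, on log2(FPKM + 0.5), for each tested gene by distance in megabases from the start of Myc on chromosome 15 (top) and of Nid2 on chromosome 14 (bottom). PIC144-1 lies above 0 around Myc while PIC144-3 stays near 0 for most genes there, though not for Pvt1 (-1.31) and H2afy3 (-1.035). Beside Nid2 it is PIC144-3 that lies above 0.

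Set against the other 5 lines, PIC144-1 was the line outside their range more often. Of the 692 genes called higher, PIC144-1 lay above all 5 in 525 (75.9%) and PIC144-3 below all 5 in 204 (29.5%). Of the 994 called lower, PIC144-1 lay below all 5 in 513 (51.6%) and PIC144-3 above all 5 in 480 (48.3%). Over all genes tested PIC144-1 was above all 5 in 21.3% and below all 5 in 17.2%, and PIC144-3 in 18.1% and 14.3%. Across genes, which are not independent replicates, the line means of PIC144-1 and PIC144-3 had a Pearson r of 0.921 on the log2 scale. The r of PIC144-3 with PIC496-3 was 0.958, and the closest line to PIC144-1 was PIC496-4 at 0.927. Over these genes the shared number 144 did not go with the highest r of either line. The genes were chosen by their level in PIC144-1 or PIC144-3, however. Those that reached 0.5 FPKM in only 1 of these lines differ within this pair by that choice. These r therefore cannot rank this pair against the others.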

How the data were processed

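Gene values were deposited by the authors as FPKM for 21 libraries of 7 lines, and the 6 libraries of PIC144-1 and PIC144-3 were compared here. HISAT2 is named, with no version, in the submitters' processing notes. Those notes give mm39, but the deposited coordinates match GRCm38: 54495 of 54532 gene identifiers are in GENCODE M21 and 53548 have the same coordinates there. The sources used here name no counter and no strand setting, so overlapping and antisense genes cannot be told apart. FPKM multiplied by gene length gave whole fragments for 100.0% of values under 1000 fragments (within 0.05), which gave the depth of each library and the count-based alternative.

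The main fit was limma 3.58.1 in R 4.3.3 on log2(FPKM + 0.5), a moderated linear model with trend and robust variance over the 6 libraries, without covariates, on genes with a mean of at least 0.5 FPKM in either line. Adjusted p-values are Benjamini-Hochberg over 13503 genes, and a call also needs a log2 difference of at least 1. Differences on this scale understate the change of genes with low values. On simulated data for this comparison over 13503 genes, 89.2% of changes of 1.5 and 97.2% of changes of 3 (log2) were called, with 1.6 false calls a run. Far fewer genes were changed there than differ here, noise was independent and normal, and low values could fall under the floor of FPKM. The 89.2% and 97.2% count only changed genes whose estimate had the right sign. These rates therefore do not measure the accuracy of the calls made here. The libraries of a line differed by more than sampling noise, so none was treated as a duplicate.

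Named genes were the 15 largest called differences in each direction without overlap between libraries, Cgas (listed in the file as Mb21d1), Idh1 and up to 5 called genes of each of 48 lists. Genes outside this rule, such as Asap1, Efr3a, Pvt1, Tcf20, Trib1, Ndrg1, Ndufa6 and Rrp7a and the members named to complete a list, were chosen after their values were seen. The members and lists were chosen with earlier results of these data known. Alternatives were other pseudocounts, filters, scalings, a count model, all 21 libraries in the fit, a replicate block and leaving out each library. Sex chromosome and mitochondrial genes were left out of the fit. Promoters came from a RefSeq table, and the proteins of the members were not analysed here. A few genes of the lists are counted in them but are not reported here.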

Additional observations from a re-analysis of the deposited data

How the results depend on the processing

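Over the 19 settings beside the main one, the number of called genes lay within 1.5 times 1686. The count called higher in PIC144-1 did not with a pseudocount of 1 (461 of 1171 called genes) and with limma voom on recovered fragments (1075 of 2422). A pseudocount of 0.1 gave 2285 calls, 1000 higher and 1285 lower. Without the limit on size 8318 genes passed, 4129 higher and 4189 lower in PIC144-1, and with a limit of 2 on the log2 scale 378 did, 154 higher and 224 lower. Rescaling to TPM put the share of calls that were higher at 47.7% against 41.0% and moved the median difference from 0.013 to 0.105. Leaving out each library in turn gave 1687 to 1747 calls. With the replicate block 1681 genes were called (690 higher, 991 lower), of which 1672 were also called without it. Libraries with the same replicate number shared little, with correlations of their deviations of 0.046, 0.049 and 0.032, although each correlated best with its own number, so the fit without the block was kept.

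Of 253 named genes that were called, none changed sign, and 33 lost a call in at least 1 setting, 29 of them with a pseudocount of 1, because the difference dropped under the limit on size. Cgas was called in all 19, with differences from -1.24 (pseudocount 1) to -2.34 (limma voom). Uncalled values near 0 changed sign: Idh1 to 0.052 and Vim to 0.095 with quantile normalization, and Lck between -0.212 and 0.025 when 1 library was left out; the cause was not tested. Depth limits the low values: the folds given as at least use a floor of 3 fragments over the 3 libraries of the line without a fragment, and floors and folds cover counting error only.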

Other observations

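Genes outside the autosomes were not part of the fit. The Y-linked genes Ddx3y and Eif2s3y had means of 0.58 and 0.339 FPKM in PIC144-1 and 1.39 and 1.37 FPKM in PIC144-3, no fragment in PIC496-3 and PIC496-4, and Ddx3y was at 10.2 to 29.1 FPKM in the 3 IDH1 wild-type lines. Xist, the RNA that coats the inactive X chromosome, was at 0.00567 and 0.00419 FPKM in PIC144-1 and PIC144-3, against 8.11 and 15.6 FPKM in PIC496-3 and PIC496-4. Over 512 X-linked genes the median log2 difference between PIC144-1 and PIC144-3 was 0.043, and over 13 protein-coding mitochondrial genes it was -0.036.

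By whole autosome, the median log2 differences furthest from 0 were 0.315 for chromosome 15, 0.313 for chromosome 6, -0.315 for chromosome 18 and -0.248 for chromosome 19. Of 250 windows of 10 Mb with at least 10 tested genes, 28 had a median at least 0.4 from that of all genes.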
